A study of Mus musculus with 10 samples.

Results

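Six2, Eya1, Osr1, Sall1 and Mycn are transcription regulators that keep nephron progenitors dividing and undifferentiated in the mouse kidney. They were taken by name, as every probe set whose platform gene symbol is exactly one of these 5 symbols, and they make up 5 of 18193 genes measured, with 10 probe sets among them. Their levels were read from urogenital systems of mouse embryos at embryonic day 15.5, dissected whole and hybridized as pools of 1 to 2 urogenital systems to 10 Affymetrix arrays. The 5 homozygous pools came from embryos with 2 cneo alleles of Wnt9b (Wnt9bcneo/cneo). The 5 control pools came from embryos that the titles call wild type, while their genotype label, Wnt9bcneo/+, gives 1 cneo allele. Each genotype was represented by distinct RNA pools, so the p-values below measure the spread between pools. How the cneo allele alters the Wnt9b transcript is not given in the sources used here.

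New nephrons arise from the cap mesenchyme, a layer of progenitor cells around each tip of the branching ureteric bud. Wnt9b, secreted by the ureteric bud, acts on these cells both in their renewal and in their entry into nephron formation. Six2 is the homeodomain factor that holds the progenitors in the undifferentiated state, Eya1 is a phosphatase and coactivator that partners Six2 and its relatives, and Osr1 is a zinc finger factor of the early renal mesenchyme that is retained in the progenitors. Sall1 is a zinc finger factor that recruits the NuRD chromatin complex, and Mycn is the MYC family member that drives growth and division of these cells. Several members are also made outside the nephron lineage: in the mouse, Mycn is made by sympathetic neuroblasts, Eya1 by muscle precursors and Osr1 by mesenchyme of the urogenital tract.

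Promoter sequence was at hand for Six2, Sall1 and Mycn, the members whose levels moved together between pools. The 250 bases before the annotated 5′ end of each gene are shown from 5′ to 3′ on the gene's strand, which is the minus strand of GRCm38.p6 in all 3 cases (RefSeq), with capitals marking matches to the motifs searched.
Six2, chr17:85688255-85688504: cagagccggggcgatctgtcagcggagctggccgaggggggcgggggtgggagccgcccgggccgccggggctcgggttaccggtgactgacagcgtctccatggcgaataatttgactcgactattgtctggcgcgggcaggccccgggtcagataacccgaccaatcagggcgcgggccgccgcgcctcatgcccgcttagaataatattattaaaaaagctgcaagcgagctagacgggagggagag
Sall1, chr8:89044163-89044412: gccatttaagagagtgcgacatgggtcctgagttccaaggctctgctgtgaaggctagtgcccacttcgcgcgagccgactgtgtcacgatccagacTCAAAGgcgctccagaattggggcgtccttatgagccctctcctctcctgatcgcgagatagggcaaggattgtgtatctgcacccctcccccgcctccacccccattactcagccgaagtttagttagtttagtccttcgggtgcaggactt
Mycn, chr12:12941837-12942086: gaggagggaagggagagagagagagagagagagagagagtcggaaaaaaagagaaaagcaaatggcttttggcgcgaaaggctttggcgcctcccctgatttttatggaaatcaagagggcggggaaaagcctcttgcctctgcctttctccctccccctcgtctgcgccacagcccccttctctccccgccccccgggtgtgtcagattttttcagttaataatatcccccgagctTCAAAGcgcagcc
Both strands were searched for CTTTGA, the core of the site bound by the TCF/LEF partners of beta-catenin, for CACGTG, the E-box of MYC and MAX, and for TCAGGTT, part of the MEF3 site bound by Six2-related factors. CTTTGA was found in the minus orientation in the Sall1 window, 153 to 148 bases before the start, and in the Mycn window, 13 to 8 bases before the start. It was found in 13.8% of all 32851 promoter windows of this length. CACGTG, held by 6.02% of the windows, and TCAGGTT, held by 3.49%, were not found in these 3. The matches describe the letters of these windows alone. Sall1 has 3 annotated starts in this table, of which the outermost is shown.

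Six2 (chromosome 17, 85662736 to 85688254 in GRCm38.p6) had the largest difference between genotypes among the members and a single probe set. Its intensities, on the linear scale of the deposited values, were 1624, 3101, 1452, 2670.0 and 2544 in homozygous pools 1 to 5, against 6884, 2483, 4034, 4206 and 3988 in control pools 1 to 5. Homozygous pools 1 and 3 were the lowest and control pool 1 the highest, and the groups overlapped through control pool 2, which lay below homozygous pools 2, 4 and 5. On the log2 scale the mean level was 11.09 ± 0.48 in homozygous pools and 12.00 ± 0.52 in control pools (SD, n = 5 each). The difference was -0.91 ± 0.30 (SE), or 0.533 of the control level, with a 95% interval of -1.58 to -0.23. It did not pass the threshold of an adjusted p under 0.05 over all genes (limma, adjusted p = 0.178). In whole urogenital systems, fewer progenitors, less Six2 RNA in each progenitor and a smaller share of kidney in the pool cannot be told apart.

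Sall1 (chromosome 8, 89027242 to 89044162) followed nearly the same order of pools. The informative probe set read 667, 1276, 678, 1143 and 1179.9 in homozygous pools 1 to 5, against 2967, 1085, 1457, 1749 and 1569 in control pools 1 to 5. Homozygous pools 1 and 3 were again lowest, control pool 1 again highest, and control pool 2 again lay among the homozygous pools. The log2 level was 9.89 ± 0.46 in homozygous pools and 10.70 ± 0.53 in control pools (SD, n = 5 each). The difference of -0.81 ± 0.30 (SE; 95% interval -1.48 to -0.14) did not pass (limma, adjusted p = 0.225). The second Sall1 probe set was under the floor of 16, the intensity to which lower values were raised, on all 10 arrays, with readings of 5.63 to 7.25 in homozygous pools and 4.26 to 12.7 in control pools. Averaging it with the first brought the difference to -0.40.

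Mycn (chromosome 12, 12936093 to 12941836) had a smaller difference and the tightest homozygous group of the members. Its brightest probe set read 1429.7, 1635, 1488, 1677 and 1283 in homozygous pools 1 to 5, against 2731, 1473, 2113, 2255 and 1969.8 in control pools 1 to 5. All control pools but pool 2 lay above every homozygous pool. The log2 level was 10.55 ± 0.16 in homozygous pools and 11.01 ± 0.32 in control pools (SD, n = 5 each), a difference of -0.47 ± 0.15 (SE; 95% interval -0.82 to -0.12; limma, adjusted p = 0.178). Without control pool 2 the difference was -0.59 and passed (limma, adjusted p = 0.0457), the only fit tried in which any member passed; with the 2 arrays of high actin ratio left out, described below, the difference was -0.31. The other probe sets of Mycn were dim. One was above the floor on 9 arrays and differed by -0.088 (95% interval -1.01 to 0.84), the other was at the floor on 7 arrays, and the mean over the 3 probe sets differed by -0.12.

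Eya1 (chromosome 1, 14168953 to 14311035) showed no detectable difference in its brightest probe set. This probe set read 1690.2, 2024, 2187, 1983 and 1516 in homozygous pools 1 to 5, against 2985, 1757, 1772, 2033 and 1855 in control pools 1 to 5. Control pool 1 stood above all other pools, and the remaining 9 pools were mixed. The log2 level was 10.86 ± 0.21 in homozygous pools and 10.99 ± 0.32 in control pools (SD, n = 5 each), and the difference of -0.13 ± 0.16 (SE; limma, adjusted p = 0.746) had a 95% interval of -0.50 to 0.24. The estimate was 0.0097 without control pool 1. The interval leaves out a fall as large as the estimate for Six2, but the difference between the genes was not tested.

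The second Eya1 probe set did not share this order of pools. It read 304, 327, 244, 384 and 129.6 in homozygous pools 1 to 5, against 296, 567, 455, 509 and 359 in control pools 1 to 5. Here control pool 1 was the lowest control pool, whereas it was the highest pool in the brighter probe set. The difference of this probe set was -0.71 ± 0.31 (SE; 95% interval -1.40 to -0.0083), which did not pass among 45037 probe sets (limma, adjusted p = 0.4), where 0.231% of probe sets passed. The third probe set of Eya1 was at the floor on 9 arrays. The mean over the 3 probe sets of Eya1 differed by -0.21.

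Osr1 (chromosome 12, 9574442 to 9581500) was the only member with a higher mean in homozygous pools. It was dim, though above the floor on all 10 arrays. Its single probe set read 171, 81.6, 130.1, 136 and 209 in homozygous pools 1 to 5, against 52.5, 135, 55.1, 158 and 84.4 in control pools 1 to 5. Homozygous pools 1 and 5 were highest and control pools 1 and 3 lowest, with the other pools interleaved. The log2 level was 7.12 ± 0.51 in homozygous pools and 6.46 ± 0.73 in control pools (SD, n = 5 each). The difference of 0.66 ± 0.38 (SE; 95% interval -0.21 to 1.53) did not pass (limma, adjusted p = 0.468), and with the 2 arrays of high actin ratio left out the difference was 0.33.

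**Figure D1:**
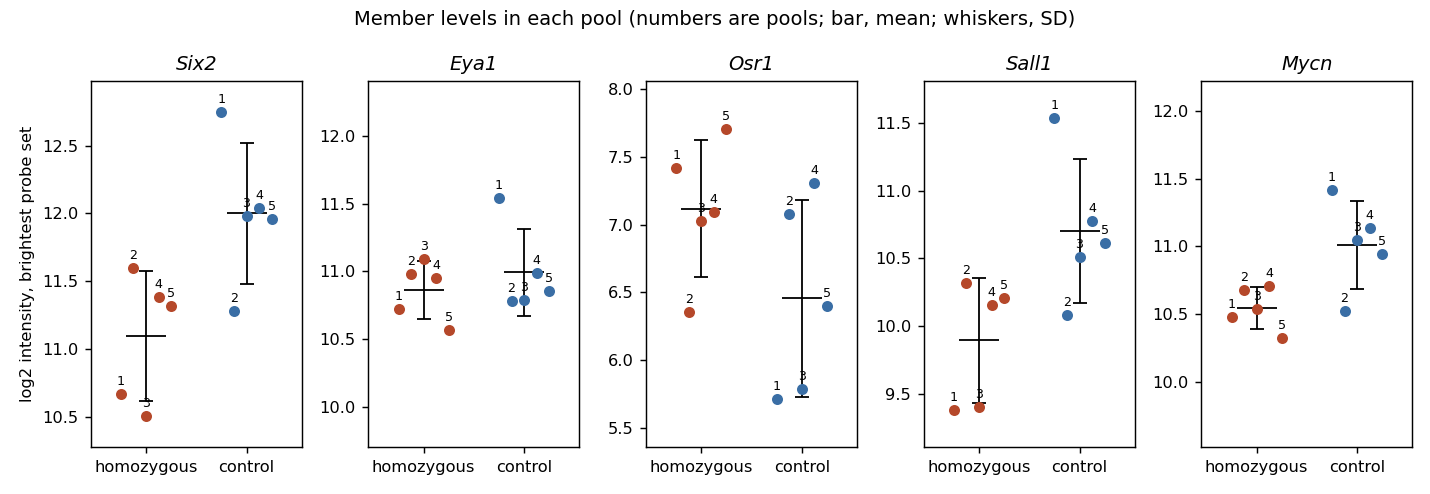
Log2 intensity of the brightest probe set of each member (y axis) in homozygous pools, left, and control pools, right; points are single pools with their numbers, the horizontal bar is the mean and whiskers are the SD (n = 5). Each panel spans the same number of log2 units. Control pool 1 is the highest pool for Six2, Sall1, Mycn and Eya1 and the lowest for Osr1.

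Over the 5 members, 0 passed the threshold, against 0.967% of all 18193 genes (176 genes, limma, adjusted p under 0.05). At an unadjusted p under 0.05, Six2, Sall1 and Mycn were lower, 3 of 5 members, where 15.7% of all genes reached this p in either direction and 5.89% reached it with lower values in homozygous pools. In none of the 5 were the homozygous and control pools apart without overlap, against 4.71% of all genes. The median difference was -0.47 over the members and 0.00 over all genes. The members were chosen with earlier results of these data known, so these shares are no test of them. Direction was stable for Six2, Sall1, Mycn and Osr1 in every fit with a pool left out, with Six2 between -1.09 and -0.72 and Sall1 between -0.96 and -0.60.

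**Figure D2:**
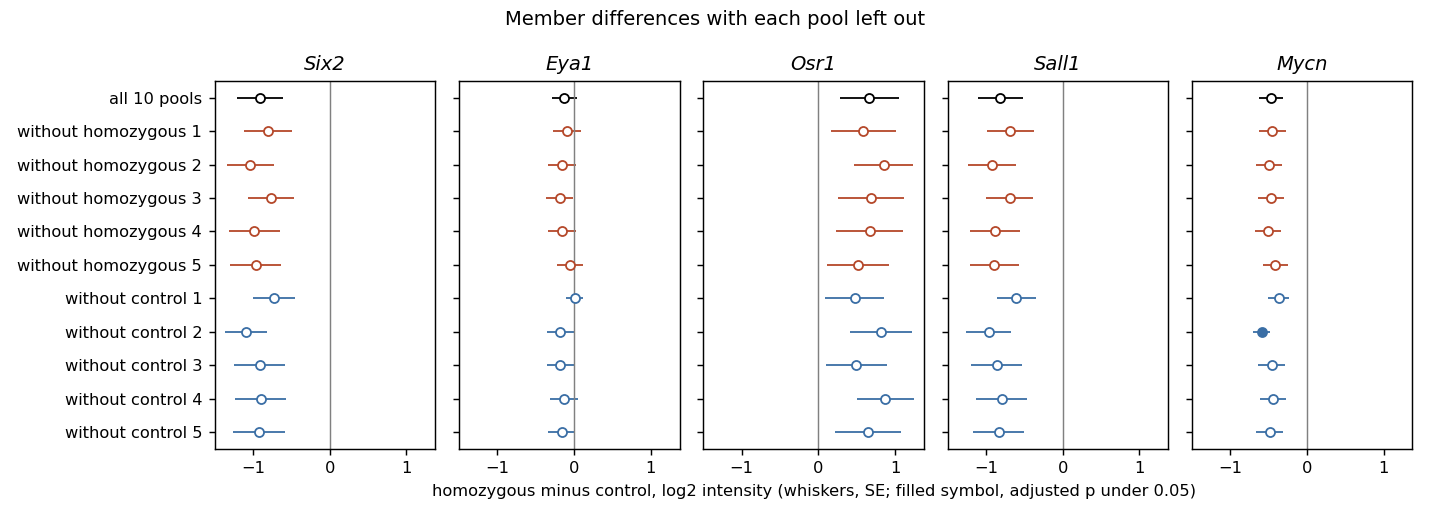
Difference between homozygous and control pools on the log2 scale (x axis) for each member, over all 10 pools and with each pool left out in turn (y axis); whiskers are the SE and filled symbols passed an adjusted p under 0.05. Only Mycn without control pool 2 is filled, and Eya1 lies at 0.0097 without control pool 1.

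Among themselves, the members formed no single pattern across pools. Six2 and Sall1 varied almost in parallel, with a Pearson r of 0.988 and a Spearman rho of 0.964 over the 10 pools, and r was 0.979 when each pool was taken as its deviation from its genotype mean. Without the 2 pools farthest from the Six2 median r was 0.976. Mycn followed both less closely, with r of 0.874 to Six2 and 0.845 to Sall1 (rho 0.879 and 0.83), and r of the deviations was 0.743 and 0.704. Eya1 had r of 0.506 to Six2 and rho of 0.418, but r was -0.014 without control pool 1, and 0.481 without the 2 pools farthest from the Six2 median, so it varied with the pools kept. Osr1 had negative r to each of the other 4 members, from -0.724 to Mycn to -0.578 to Eya1. Its r to Six2 was -0.674 (rho -0.515), -0.506 without control pool 1 and -0.516 for the deviations. Without control pool 1 the r of Osr1 was -0.392 to Sall1 and -0.269 to Eya1. Without the 2 pools farthest from the Eya1 median, the r of Osr1 to Eya1 was 0.10. These are descriptions of 10 arrays over 10 pairs of genes, given without p-values. The arrays share a common scaling and fall into the 2 genotypes, and no test within genotype was run.

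The genes most like each member were sought among 13402 genes above the floor on every array, by Pearson r over the 10 pools. Six2 was matched most closely by Gm266 (r = 0.991), Btbd11 (r = 0.983) and Pou3f3 (r = 0.981), which encodes a POU factor of the nephron lineage. Gm266 (r = 0.985) and Btbd11 (r = 0.971) recurred for Sall1, together with Hoxb5 (r = 0.973), a homeobox gene of the trunk. Mycn was closest to Foxc2 (r = 0.973), a forkhead gene of kidney mesenchyme and podocytes, to Dll1 (r = 0.966), a Notch ligand of early nephrons, and to Lzts3 (r = 0.964). For these 9 matches r of the deviations from genotype means was at least 0.940. None of these genes passed. Pou3f3 averaged 10.29 in homozygous pools and 11.45 in control pools, a difference of -1.16 on the log2 scale (limma, adjusted p = 0.0949), and Dll1 differed by -0.78 (adjusted p = 0.0651).

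Eya1 and Osr1 had neighbours of other kinds in the same search over all 10 pools. That search included control pool 1, which stood above all other pools for Eya1. Leaving it out took the r of Eya1 to Six2 from 0.506 to -0.014. The genes nearest to Eya1 were 1700123O20Rik (r = 0.966), Tmem126a (r = 0.958), which encodes a mitochondrial membrane protein, and Cdv3 (r = 0.956), with differences of -0.082, -0.072 and -0.011 on the log2 scale. Osr1 was matched less closely, by Aldh1l2 (r = 0.929), a mitochondrial folate enzyme gene, Prune2 (r = 0.917) and Klhl29 (r = 0.910), all higher on average in homozygous pools and none past the threshold.

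The partners and paralogs of the members gave no call either. Six4, a homeobox paralog of Six2, was 7.79 ± 0.26 in homozygous pools and 8.44 ± 0.21 in control pools on the log2 scale (SD, n = 5 each), and every homozygous pool lay below every control pool, as in 2.1% of all genes. The difference was -0.66 ± 0.15 (SE; limma, adjusted p = 0.0812). Dach1, a corepressor of the same network, differed by -0.79 (adjusted p = 0.231), while Dach2 differed by 0.0084. Of the other paralogs, Six5 differed by -0.39, Six3 by 0.22, Eya2 by -0.16, Eya3 by -0.13 and Eya4 by -0.14, and Six6 was at the floor on 8 arrays. In all, 0 of the 9 measured genes passed, with a median of -0.14.

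Of the Sall and Osr paralogs, Sall2 differed by -0.39 (95% interval -0.68 to -0.10; limma, adjusted p = 0.174). Sall3 differed by -0.84 at levels near the floor, Osr2 by -0.62, and Sall4, a germ cell gene, by 0.020 with a wide interval of -2.35 to 2.39. None of the 4 passed. In the Myc family, which shares targets with Mycn, Myc differed by -0.22 (95% interval -0.52 to 0.08) and Mycl by 0.13. The partner Max was at the floor on 6 arrays and differed by -0.36. The antagonists and related factors Mxd1 (-0.16), Mxd3 (0.14), Mxd4 (0.10), Mxi1 (0.14), Mnt (0.12), Mlx (-0.23) and Mga (-0.13) differed less than Max, and 0 of the 10 family genes passed.

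The genes through which these regulators act were read in the same way. Among 19 measured growth genes regulated by MYC proteins, of 20 listed, 0 passed and the median was -0.22, with 15 lower on average. The largest differences were in Cdk4 (-0.61), a kinase of cell cycle entry, Nolc1 (-0.57), Ncl (-0.57), both of the nucleolus, and Cad (-0.50), which encodes the first enzyme of pyrimidine synthesis. The mean log2 level of this MYC list was lowest in homozygous pool 5, at 10.76, and in control pool 1, at 11.19. Its summed intensity was instead the highest of each genotype in these pools, at 91080 and 97188. These are the pools with a high actin ratio, whose part in the result was not tested. Among the 12 genes of the NuRD complex bound by Sall1, 0 passed and the median was -0.050, or -0.077 over the 11 genes left without Mbd3, which was at the floor on all 10 arrays. The largest differences were in Mta2 (-0.96), Mta1 (-0.55), Chd4 (-0.43) and Gatad2a (-0.35). Every homozygous pool lay below every control pool for Hdac1 (-0.34) and Mta1 in this list and for Nop56 (-0.28) and Pa2g4 (-0.22) among the MYC targets, as in 2.1% of all genes.

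Of the other genes of the cap mesenchyme, 16 of 18 listed were measured, 0 passed and 12 were lower on average, with a median of -0.44. The largest differences were in Uncx (-1.41; limma, adjusted p = 0.0631), a homeobox gene, Cited1 (-1.30; adjusted p = 0.519), a marker of the least differentiated progenitors, Gdnf (-1.29; adjusted p = 0.128), the growth factor that attracts the ureteric bud, and Crym (-0.86; adjusted p = 0.0864), a thyroid hormone binding protein. Among the 4 genes higher on average, Dpf3 differed by 0.83 (limma, adjusted p = 0.303) and Rspo3 by 0.37, neither passing. The integrin gene Itga8 differed by -0.065 and Capn6 by 0.035, both with high levels in every pool. Among 15 genes of the signals that maintain progenitors, which share Gdnf, Itga8 and Fgf20 with that list, 0 passed and the median was -0.31. Etv5 (-1.40) and Etv4 (-0.67) are transcription factors downstream of receptor tyrosine kinases, and Bmp7 (-0.74; adjusted p = 0.0753) is a growth factor of the cap mesenchyme.

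In the next step of the lineage, the early nephron list had 2 of 12 genes past the threshold, both lower in homozygous pools. Over all genes, 0.429% passed with lower values. The list was chosen with earlier results of these data known, so this share is no test of it. The secreted Wnt inhibitor gene Dkk1 fell by 1.63 on the log2 scale (limma, adjusted p = 0.0222) and the cadherin gene Cdh6 fell by 0.80 (adjusted p = 0.0472). Of the 10 fits with a pool left out, Dkk1 passed in 3, without homozygous pool 2, homozygous pool 4 or control pool 2. Cdh6 passed in 1, without control pool 2. Over all 10 fits, passing or not, the differences ran from -1.73 to -1.49 for Dkk1 and from -0.89 to -0.71 for Cdh6. Of 14 other alternatives Dkk1 failed in 4, among them Xist as a covariate (adjusted p = 0.234), the 3 Xist-high pools left out (adjusted p = 0.189) and the 2 arrays of high actin ratio left out (adjusted p = 0.0679). Cdh6 failed in 9, among them the mean over its probe sets, which differed by -0.41 (adjusted p = 0.391), and quantile normalization (adjusted p = 0.0734). Lhx1 (-1.57; adjusted p = 0.0558), a homeobox gene of renal vesicles, Pax8 (-1.33) and Cdh4 (-0.90) followed, and the list median was -0.79, or -0.80 without Fgf8, which was at the floor on all 10 arrays, while the median of the members was -0.47. Whether the lists differ was not tested.

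**Figure D3:**
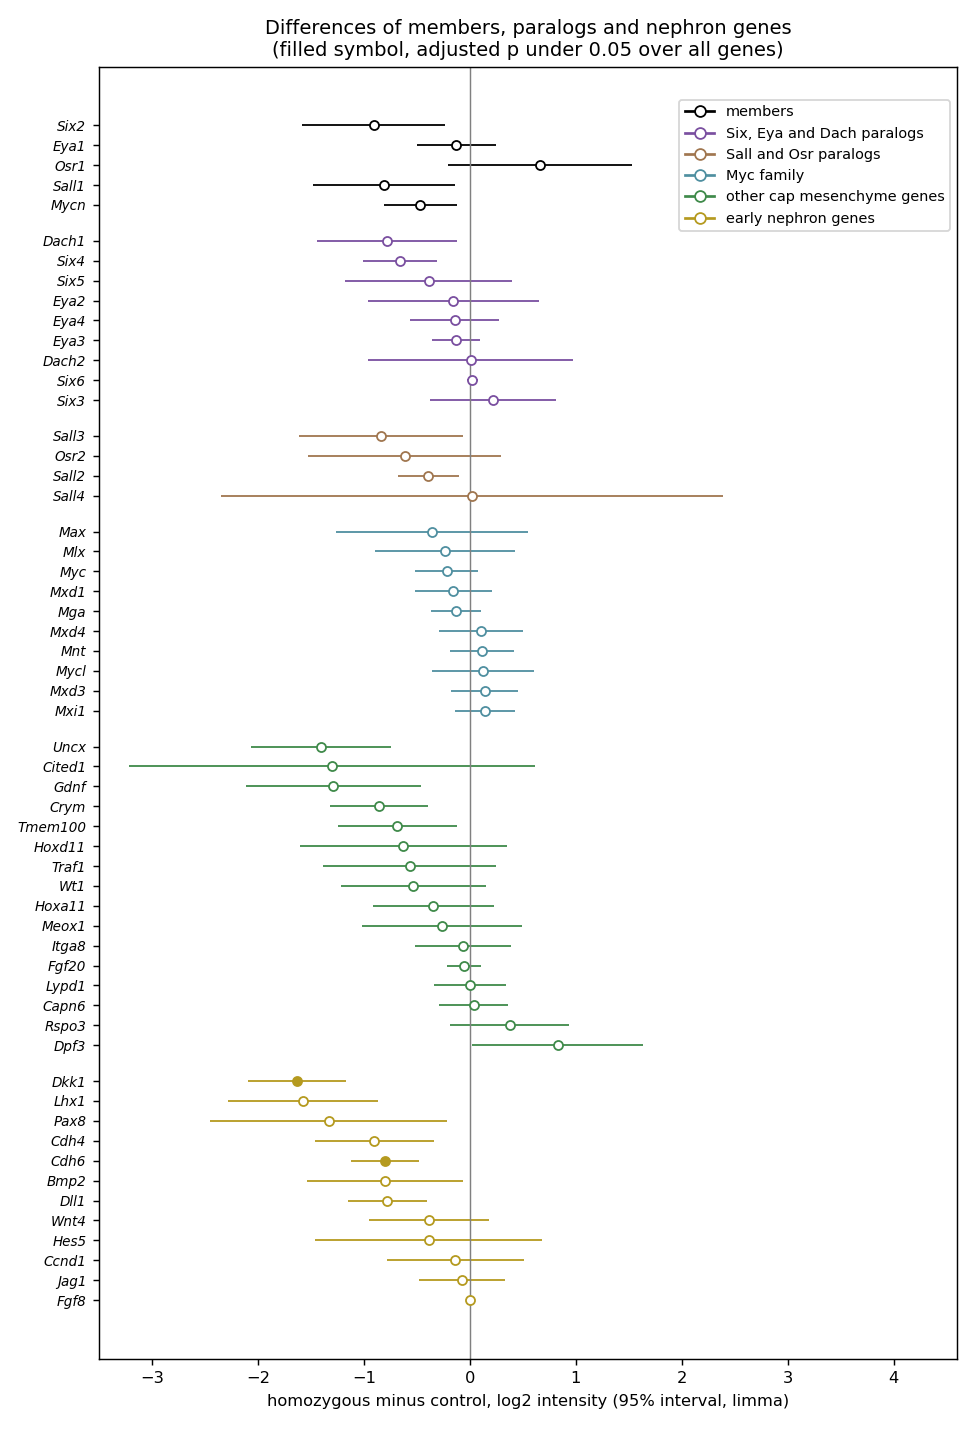
Difference between homozygous and control pools on the log2 scale (x axis) with its 95% interval from limma, for the members, their paralogs and 2 lists of nephron genes (y axis); filled symbols passed an adjusted p under 0.05 over all genes. The filled symbols are Dkk1 and Cdh6, and the intervals of Six2, Sall1 and Mycn lie below 0 without passing after adjustment.

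Markers of other tissues and of RNA quality differed between the pools, and some of them moved with the members. No proximal tubule, ureteric or stromal marker was at the floor on all arrays. All 9 proximal tubule genes measured were lower on average in homozygous pools. Of these 5 passed the threshold, against 0.429% of all genes that passed with lower values, and the list median was -1.27. This list, too, was chosen with earlier results of these data known. Its summed intensity was 4646 to 6298 in homozygous pools and 8578 to 11667 in control pools, and its mean log2 level had r of 0.826 to Six2 (rho 0.782; 0.636 for the deviations). With single pools left out, 0 to 5 of these genes passed, and 5 passed without homozygous pool 2 or control pool 2, 3 without homozygous pool 4 and 0 without any of the other 7. None of the 9 passed with Xist as a covariate, without the 3 Xist-high pools, without the 2 arrays of high actin ratio or with the replicate block, though the list median stayed at -1.42 to -1.18 in these 4 fits. The ureteric list had 0 of 11 genes passing, a median of -0.60, and summed intensities of 8322 to 16977 in homozygous pools and 13045 to 20911 in control pools. The mean of the ureteric list had r of 0.869 to Six2 (rho 0.758; 0.711 for the deviations). The marker list of neuronal and chromaffin cells, 14 of 15 genes measured and none at the floor on all arrays, had summed intensities of 18326 to 36628 in homozygous pools and 2933 to 14671 in control pools. All 14 were higher on average in homozygous pools, and 0 passed by themselves. Its mean log2 level was highest in homozygous pools 3 (11.09) and 1 (10.81), where Six2 was lowest, and lowest in control pool 1 (6.05), where Six2 was highest. Control pool 2, the control pool with the lowest Six2, had the highest neuronal mean of the control pools, 9.42.

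Over the 10 pools the neuronal mean had r of -0.923 to Six2 (rho -0.879), -0.887 to Sall1 (rho -0.83) and -0.899 to Mycn (rho -0.794), and r of the deviations from genotype means was -0.85, -0.798 and -0.785. Without the 2 pools farthest from the neuronal median these r were -0.914, -0.9 and -0.809. The smooth muscle list, with 7 of 7 genes measured and none at the floor on all arrays, had summed intensities of 13333 to 43693 in homozygous pools and 8506 to 26296 in control pools. Its mean had r of -0.909 to Six2 (rho -0.891) and 0.778 to Osr1 (rho 0.685). The stroma list had means of 11.74 to 11.97 in homozygous pools and 11.59 to 11.88 in control pools, over genes that differed both ways, with 7 higher and 5 lower on average. Among them Meis1 differed by 0.44 (limma, adjusted p = 0.118) and Aldh1a2 by -0.49 (adjusted p = 0.0707), neither passing. The early nephron list, of the same lineage, had r of 0.906 to Six2 (rho 0.867) and 0.87 for the deviations. The other cap mesenchyme genes followed less closely. Their mean had r of 0.695 to Six2 (rho 0.842) and 0.616 to Sall1 (rho 0.794). For the deviations these r were 0.372 and 0.254. Skeletal muscle and adrenal markers varied more between pools, with summed intensities of 18822 to 54079.7 and 4203 to 41706 in homozygous pools and 1157 to 57096 and 296 to 22439 in control pools. The part of these tissues in the member differences was not tested.

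**Figure D4:**
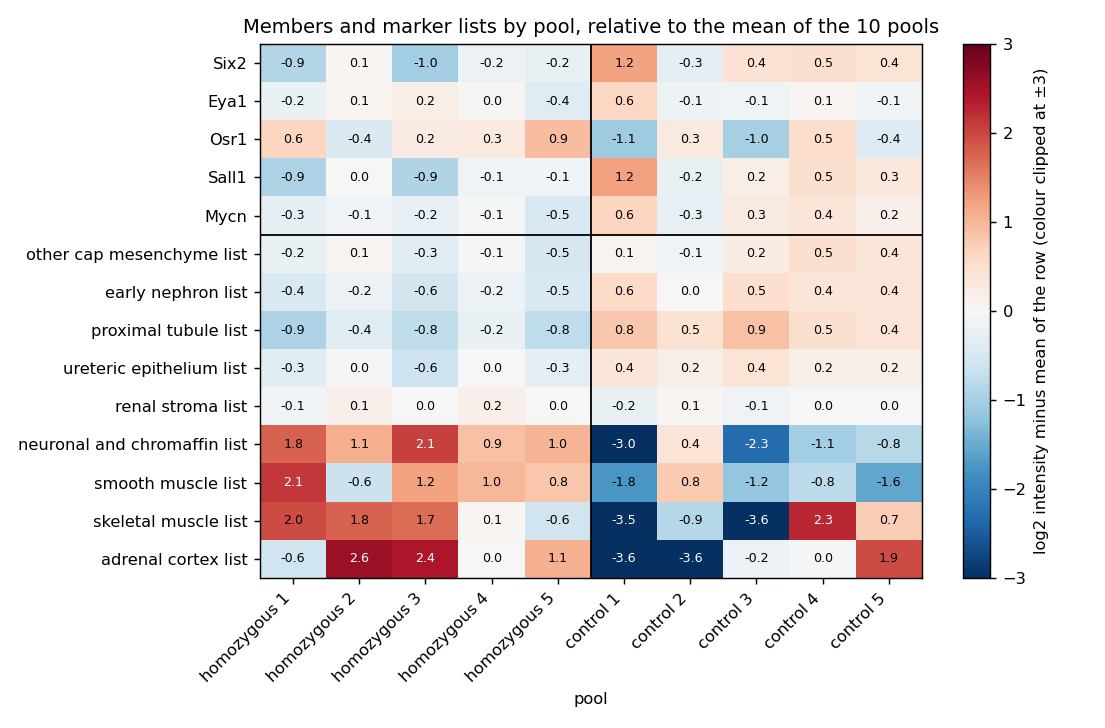
Log2 intensity of each member and mean log2 intensity of each marker list (rows) in the 10 pools (columns), as the difference from the row's mean over all pools; red is higher and blue lower, and the colour scale stops at 3 units. Six2 and Sall1 share their low pools, homozygous 1 and 3, and their high pool, control 1, and the neuronal row runs opposite to them.

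RNA integrity was read from actin, as the 3′ over the middle probe set, a ratio that rises as RNA breaks down. Homozygous pool 5 had a ratio of 97.7 and control pool 1 one of 94.8, while the remaining 8 pools lay between 9.87 and 33.1. Without these 2 arrays Six2 differed by -0.78 (limma, adjusted p = 0.228), Sall1 by -0.68, Mycn by -0.31, Osr1 by 0.33 and Eya1 by 0.084. Xist was high in homozygous pools 3 to 5 and in no control pool. The mean log2 level of Y-linked genes was 4.0 in these 3 pools and 9.75 to 10.31 in control pools. It was 9.88 and 10.02 in homozygous pools 1 and 2. By these transcripts homozygous pools 3 to 5 held female embryos and all other pools male embryos, so sex was not balanced between genotypes. Without homozygous pools 3 to 5 Six2 differed by -0.87, Sall1 by -0.85 and Mycn by -0.44 with none passing. Wnt9b itself differed by -0.23 (limma, adjusted p = 0.803) and does not check the genotype labels, since the altered part of the gene is not given.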

How the data were processed

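Trizol-extracted RNA, 1 ug a pool, was turned into biotinylated cRNA, per the labels. The authors deposited linear intensities of probe sets, scaled so that every array has a mean of 500 once 2% of values at either end are trimmed, which removes differences in total RNA. How probe sets were summarized, and with which software, is not given in the sources used here. The series design text describes another stage and allele than the sample labels, which were followed. Of 45101 rows, 64 Affymetrix controls were left out; 34945 probe sets had 1 gene symbol, 932 several and 9160 none here.

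Intensities under 16 were raised to 16 and taken to log2, so differences near the floor are understated. The share of probe sets at the floor was 19.9% to 21.1% in homozygous pools and 22.2% to 23.0% in control pools, without overlap. The part of this in the differences was not tested. Each of 18193 genes was represented by its brightest probe set, and the comparison used limma 3.58.1 under R 4.3.3 (eBayes with an intensity trend, two-sided, Benjamini-Hochberg over all genes); intervals are at 95%. The fit was tested on simulated data. The members and gene lists were chosen with earlier results of these data known; 203 of 216 list entries were measured. Genes named are the members, their paralogs and Wnt9b. Added to these are the genes past the threshold and the 4 largest differences of each pathway list, and the 3 genes most like each member. Itga8, Capn6, Dpf3, Rspo3, Hdac1, Nop56, Pa2g4, Mbd3, Fgf8, Meis1 and Aldh1a2 were named after their values were seen. Alternatives changed the probe set rule, normalization, floor, filter, variance model, weights, covariates and pools. No pair of arrays was identical. The number of arrays limits the precision.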

Additional observations from a re-analysis of the deposited data

Results flagged for a closer look

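The brightest probe set of Eya1 in control pool 1, at a log2 intensity of 11.54, stood apart from the other control pools, the nearest of which was at 10.99; the gap was 0.725 of the range of the group. Of 54 groups of 5 pools examined, over member probe sets and list means, this was the only one with a pool so far from the rest. Chance alone flags about 1 in 20 such groups, so 1 flag among 54 is no more than chance gives. The second probe set of Eya1 was lowest in the same control pool among controls, and the actin ratio of this pool was 94.8.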

How the results depend on the processing

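There were 24 alternatives, and 23 for Osr1, which the filter on the dimmest 40% of genes removed. In these, Six2 and Sall1 stayed lower and Osr1 higher in homozygous pools without passing. Six2 ran from -1.09 to -0.72 and its adjusted p in limma from 0.0695 to 0.623. Some alternatives, among them the floors of 32 and 1 and the replicate block, could not move the Six2 estimate of -0.91. With single pools left out, Six2 ran from -1.09 to -0.72, Sall1 from -0.96 to -0.60, Mycn from -0.59 to -0.37, Osr1 from 0.48 to 0.87 and Eya1 from -0.19 to 0.0097, turning its sign without control pool 1; Mycn passed without control pool 2 (adjusted p = 0.0457), which made the number of members passing run from 0 to 1. Eya1 also turned its sign with array weights (0.043) and without the 2 arrays of high actin ratio (0.084); its interval spans 0 in the fit of all pools. The mean over probe sets gave -0.40 for Sall1, whose second probe set is at the floor on all arrays, and -0.12 for Mycn, whose dimmer probe sets differed by -0.088 and 0.20.

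The number of all genes passing, 176 over all pools, ran from 3 to 414 with single pools left out. It was 104 with all probe sets as features, 109 with the mean of probe sets, 78 with median centring, 94 with a floor of 32, 283 without the dimmest 40% of genes, 951 with array weights, 489 with the actin ratio and 13 with Xist as a covariate, 28 without the 3 Xist-high pools and 23 without the 2 arrays of high actin ratio; the cause was not tested. With the replicate number as a block 1 gene passed, and Six2 differed by -0.91 (adjusted p = 0.474). The numbers do not pair the pools: deviations of same-numbered pools correlated at -0.631 to -0.158, and 0 pools correlated best with their own number. Values near the floor limit the second probe set of Sall1 and the dimmer probe sets of Mycn. Osr1 was dim but above the floor on all arrays, its lowest reading being 52.5. A floor of 32 or of 1 therefore could not change its difference of 0.66.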
